A study of Homo sapiens with 20 samples.

Results

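The immediate early genes described here are FOS, FOSB, JUN, JUNB, JUND, EGR1, IER2, IER3, ATF3 and DUSP1, a list of 10 symbols chosen by name, and all 10 of them were found among the 17113 protein-coding genes of the count table. Their mRNAs were read in the cells of 10 human colorectal cancer lines and in the extracellular vesicles, membrane-bound particles shed into the medium, of the same lines. The question addressed was how mRNAs that are known to be short-lived appear in vesicles beside the cells that released them.

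The lines were COLO-201, HCT 116, HT-29, LoVo, LS1034, LS123, LS513, SNU-C1, SW480 and WiDr, with 1 cell library and 1 vesicle library per line and 20 libraries in all. The labels give the lines as wild type adenocarcinoma cells of the large intestine with no treatment, all grown in RPMI-1640 or DMEM with fetal bovine serum, penicillin and streptomycin, without saying which line had which medium. Cell RNA went through a stranded KAPA kit that removes ribosomal RNA, whereas vesicle RNA was isolated with an exosome kit, amplified by SMART-Seq chemistry for low input and tagmented with Nextera XT. Each compartment thus has its own kit, so that the effects of kit and compartment cannot be told apart. WiDr is catalogued as a derivative of HT-29, and the cells of HT-29 and WiDr (r = 0.81) and of HCT 116 and LS123 (r = 0.80) were the closest pairs by the correlation of their deviations from the mean of all lines. The p-values below treat the 10 lines as independent. Cultures of 1 line were not replicated. In bulk libraries, fewer cells or vesicles that carry an mRNA and less of that mRNA in each of them cannot be told apart.

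Immediate early genes are switched on within minutes of a growth factor, serum or stress signal, without new protein synthesis, when signalling kinases activate factors already bound at their promoters. Their mRNAs then disappear quickly, since many carry AU-rich elements in the 3′ UTR that recruit decay factors such as ZFP36. FOS and JUN family proteins pair into the transcription factor AP-1, which acts downstream of growth factor signalling in colorectal tumours. An mRNA of this kind reports the recent state of a cell rather than a long average.

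The AU-rich sites of 4 members are shown because they carry the feature for which these mRNAs are known. Each window of 29 bases comes from the annotated 3′ UTR of the representative GENCODE 29 transcript on GRCh38, is written 5′ to 3′ in DNA letters on the mRNA strand, and has every ATTTA pentamer in capitals.
FOS: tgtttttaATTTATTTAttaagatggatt
DUSP1: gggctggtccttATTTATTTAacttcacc
IER3: ctcctaattaatATTTAtatgtATTTAtg
JUN: ttgcttatgaatATTTAtaacagcattct
FOS and DUSP1 hold overlapping pentamers that form the nonamer TTATTTATT. Over the whole 3′ UTR, the heptamer TATTTAT occurred 4 times in IER3, 3 times in DUSP1, 2 times in FOS and 1 time each in FOSB, JUN, JUND and ATF3. JUNB, EGR1 and IER2 held 0 heptamers, and IER2 held 0 ATTTA pentamers in 1050 bases. A match is a description of these letters, not a test of decay.

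Promoter stretches are shown for 2 members to illustrate the sites through which such genes are known to be induced. They come from RefSeq windows on GRCh38.p14 that run from 250 bases before to 50 bases after the start site, with capitals marking the cyclic AMP response element core TGACGT on either strand and, in EGR1, the core of the serum response element.
EGR1, chr5:138465328-138465432, plus strand: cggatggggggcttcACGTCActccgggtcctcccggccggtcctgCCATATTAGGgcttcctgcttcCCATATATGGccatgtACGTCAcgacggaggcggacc
DUSP1, chr5:172771298-172771382, minus strand: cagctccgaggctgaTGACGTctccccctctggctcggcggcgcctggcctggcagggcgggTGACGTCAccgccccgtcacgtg
Of the 9 members with a window, all but IER3, TGACGT was found in 5 (FOS, FOSB, JUND, EGR1 and DUSP1) against 7.98% of 35116 RefSeq windows. The full palindrome TGACGTCA, which contains TGACGT, was found in JUND and DUSP1 against 1.85% of windows, and the serum response element core in EGR1 against 1.29%. The AP-1 motif TGANTCA was found in 0 of the 9 and in 7.71% of windows.

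Total counts ran from 24.8 to 37.4 M in cells (median 33.0) and from 1.75 to 24.4 M in vesicles (median 4.56), so that vesicle values are the less precise ones. A count of 0 would allow up to 3 counts, or 0.0956 to 0.157 CPM (counts scaled to a library of 1 M) for a cell library and 0.136 to 0.915 CPM for a vesicle library, with counting as the sole error considered. Vesicle libraries also held reads of genes that were silent in every cell library. The read density on 2077 such genes, extended to the exons of all genes, put this background at an estimated 2.05% to 50.2% of vesicle counts. In SW480, COLO-201, HT-29, HCT 116 and LS513 this background was at most 7.10%, and in LS1034, LoVo, WiDr, LS123 and SNU-C1 it was at least 18.9%. All 12 markers of colorectal epithelium, among them EPCAM and KRT20, averaged at least 10 CPM in both compartments. Markers of leukocytes summed to 0.181 to 3272 CPM in cells and 4.61 to 872 CPM in vesicles, mostly LYZ, and those of erythroid cells and platelets to 0.541 to 10.3 CPM and 9.57 to 212 CPM. The sums for fibroblasts and endothelium were 0.786 to 20.6 CPM in cells and 29.8 to 281 CPM in vesicles, and those for hepatocyte and serum protein genes were 0.605 to 916 CPM and 18.2 to 513 CPM. No marker of these classes was at 0 in every library, and the part of such RNA in the results below was not tested.

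The 10 genes together made up 0.0221% to 0.217% of all counts in cells (median 0.0389%) and 0.0167% to 0.0461% in vesicles (median 0.0322%). Against the cells, 4 of them were lower in vesicles, namely IER2, JUNB, JUN and EGR1, and 0 were higher, by edgeR's quasi-likelihood test with cell line as a block and Benjamini-Hochberg adjustment over 15130 genes. At an unadjusted p under 0.05 the same fit gave 5 lower, with JUND added, and 0 higher. The DESeq2 Wald test called 2 lower and 1 higher, FOSB, beside 3151 lower and 6264 higher among all 15130 genes. Over all genes tested in edgeR, 28.1% were lower and 28.6% higher. Leaving out LoVo left 1 member lower, IER2, and leaving out HT-29, LS513, WiDr or SW480 left 2, while without WiDr FOSB was called higher. The median log2 fold change of the 10 genes was -0.74, beside 0.01 for all genes tested and -0.53 for the 10023 genes whose cell libraries averaged 10 CPM or more, of which 42.3% were lower. The 4 falls in 10 are near that share and above the share over all genes. FOSB and IER3 did not reach the expression filter in every cell library. The level of every gene overlapped between the compartments.

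**Figure D1:**
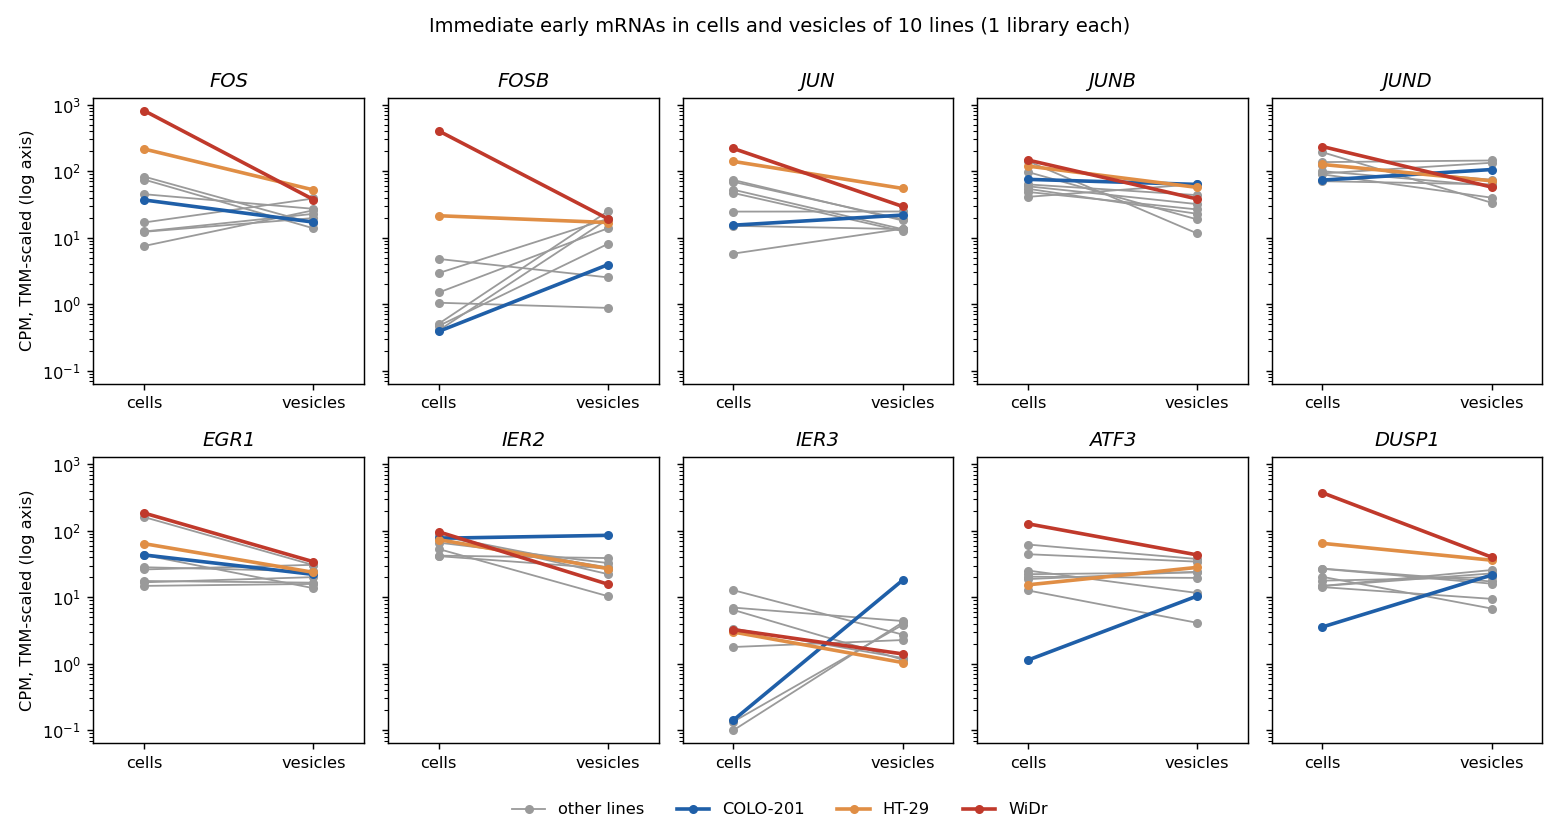
TMM-scaled CPM of each gene in the cells and vesicles of the 10 lines on a log axis, with a line joining the libraries of 1 cell line. WiDr cells were the highest for 9 of the 10 genes, and the vesicle values lie closer together than the cell values for FOS, JUN and EGR1.

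The JUN family encodes partners in AP-1. JUN (chr1:58780788-58784327 on GRCh38, minus strand, 1 exon), its inducible activator, ranged in cells from 5.76 CPM in HCT 116 to 219.6 CPM in WiDr (median 49.8), and in vesicles from 12.5 CPM in SW480 to 55.0 CPM in HT-29 (median 18.5). The highest vesicle level lay near the cell median, and HCT 116, LoVo and COLO-201 were the lines with more JUN in vesicles than in cells. Its fold change was -1.06 on the log2 scale (SE 0.39, edgeR adjusted p = 0.0296), and it was lower in 7 of 10 lines. The call was lost in 7 of the 10 fits that left out 1 line (LoVo, LS1034, SNU-C1, HT-29, LS513, WiDr or SW480), with edgeR adjusted p up to 0.117 without LoVo.

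JUNB (chr19:12791496-12793315, plus strand, 1 exon), which can restrain JUN activity, ranged in cells from 41.1 CPM in HCT 116 to 147 CPM in WiDr (median 69.3). In vesicles it ranged from 11.6 CPM in SNU-C1 to 63.9 CPM in HCT 116 (median 35.1), so HCT 116 held the lowest cell level and the highest vesicle level. JUNB was lower in vesicles in 9 of 10 lines, by -1.17 on the log2 scale (SE 0.34, edgeR adjusted p = 0.00841). Without LoVo it missed the threshold (-0.86, edgeR adjusted p = 0.0864). It shares 259 exonic bases with HOOK2 on the other strand, and the strand setting of the counting is not given in the sources used here, so reads of the pair may be mixed.

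JUND (chr19:18279760-18281622, minus strand, 1 exon) is the family member that is expressed constitutively in most cells. Per kilobase of exon it was the most abundant of the 10 genes in both compartments, at a mean of 66.7 CPM per kb in cells and 42.1 CPM per kb in vesicles. It ranged in cells from 70.6 CPM in LoVo to 235 CPM in WiDr (median 113) and in vesicles from 33.5 CPM in LS123 to 145 CPM in LS513 (median 67.4). The groups overlapped widely, and the log2 fold change of -0.67 did not pass the test (SE 0.30, edgeR adjusted p = 0.0682). Leaving out COLO-201 (-0.82, edgeR adjusted p = 0.0347) or HCT 116 (-0.83, edgeR adjusted p = 0.0330) brought it past the threshold.

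FOS (chr14:75278774-75282230, plus strand), the classical serum-induced partner of JUN, spread widely among the cells, from 7.50 CPM in LS123 through a median of 41.0 CPM to 813 CPM in WiDr. In vesicles the lowest level was 13.8 CPM in LS513, the median 24.3 CPM and the highest 52.3 CPM in HT-29. A 108-fold range in cells thus stood beside a 3.78-fold range in vesicles. LS123, LoVo, HCT 116 and LS1034 held more FOS in vesicles than in cells, and the other lines held less. The log2 fold change of -0.81 did not pass the test (SE 0.59, edgeR adjusted p = 0.258).

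FOSB (chr19:45467995-45475179, plus strand), a relative of FOS, ranged in cells from 0.389 CPM in COLO-201 to 403 CPM in WiDr, with a median of 1.27 CPM. Its vesicle levels ran from 0.878 CPM in HCT 116 to 25.01 CPM in SNU-C1, with a median of 15.4 CPM. The cell mean rested on WiDr, and outside WiDr and HT-29 no cell library exceeded the 4.78 CPM of SW480. The blocked fit gave 2.14 on the log2 scale (SE 1.02, edgeR adjusted p = 0.0906), higher in vesicles in 6 of 10 lines, and without WiDr it passed the test (2.68, edgeR adjusted p = 0.0246). Without the block by line the sign turned (-1.75, edgeR adjusted p = 0.240). FOSB vesicle counts stood at a median of 1.25 times their expected background. After that background was subtracted the log2 fold change was 0.92 (edgeR adjusted p = 0.556).

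EGR1 (chr5:138465490-138469315, plus strand) is a zinc finger factor induced through serum response elements like those printed above. It ranged in cells from 14.8 CPM in SNU-C1 to 185 CPM in WiDr (median 35.7) and in vesicles from 13.7 CPM in LS513 to 34.2 CPM in WiDr (median 22.9). SW480 cells (160.5 CPM) stood beside WiDr, yet SW480 vesicles held 30.5 CPM. EGR1 was lower in vesicles in 7 of 10 lines (log2 fold change -0.84, SE 0.32, edgeR adjusted p = 0.0359). The call was lost in 6 of the 10 fits that left out 1 line (LoVo, COLO-201, HT-29, LS513, WiDr or SW480), with edgeR adjusted p up to 0.152 without LoVo.

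IER2 (chr19:13150415-13154908, plus strand) and IER3 (chr6:30743199-30744554, minus strand) encode small immediate early proteins, of which IER3 acts in survival under stress. IER2 was even among the cells, from 41.5 CPM in LoVo to 96.3 CPM in WiDr (median 73.8). In vesicles it ran from 10.4 CPM in SNU-C1 to 85.3 CPM in COLO-201 (median 27.0), and COLO-201 was the single line with the higher value in vesicles. The fall was 2.44-fold, or -1.29 on the log2 scale (SE 0.28, edgeR adjusted p = 0.00120). It stayed past the threshold in each of the 10 fits that left out 1 line, with edgeR adjusted p from 0.000488 to 0.0195. IER2 shares 946 exonic bases with the antisense gene AC011446.2, so its counts carry the same doubt on strand as those of JUNB.

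IER3 had the lowest mean of the 10 genes in cells, 3.80 CPM, while FOSB had a lower median (1.27 CPM). IER3 cell levels had a lowest value of 0.0997 CPM in SW480, a median of 3.13 CPM and a highest of 12.8 CPM in LS123. Its vesicle levels were 1.04 CPM in HT-29 at the lowest, 2.51 CPM at the median and 17.998 CPM in COLO-201 at the highest. The blocked comparison gave a log2 fold change of 0.09 with a wide error (SE 1.10, edgeR adjusted p = 0.949). Its 359 exonic bases shared with IER3-AS1 are open to the same doubt.

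ATF3 (chr1:212565334-212620777, plus strand) encodes a stress-induced factor that can repress AP-1 targets. It ranged in cells from 1.13 CPM in COLO-201 to 127 CPM in WiDr (median 21.3) and in vesicles from 4.13 CPM in SW480 to 43.3 CPM in WiDr (median 23.9). The medians were close, 4 lines were higher and 6 lower in vesicles, and the log2 fold change was -0.16 (SE 0.39, edgeR adjusted p = 0.752).

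DUSP1 (chr5:172768090-172771195, minus strand) encodes a phosphatase that switches off the MAP kinases which induce it. It ranged in cells from 3.58 CPM in COLO-201 to 372 CPM in WiDr (median 19.0) and in vesicles from 6.76 CPM in SW480 to 40.1 CPM in WiDr (median 20.8). Apart from WiDr, the cell levels of 14.2 to 64.7 CPM in 8 lines and the 3.58 CPM of COLO-201 spanned the vesicle range. The log2 fold change was -0.34 (SE 0.43, edgeR adjusted p = 0.521).

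The scaling between libraries moved all of these values together. The median over all genes was 0.01 with TMM and 0.76 with upper-quartile scaling, and under the latter IER2 (-0.54), JUNB (-0.43), JUN (-0.31) and EGR1 (-0.09) kept a negative sign with no call, while JUND (0.07), ATF3 (0.61) and DUSP1 (0.42) turned positive. FOS stayed at -0.07 and FOSB reached 2.89 (edgeR adjusted p = 0.0375). These directions are therefore relative to all genes, and ratios of 2 genes inside a library, which need no scaling, were tested as well. The log2 ratio of JUND to JUN averaged 1.4995 in cells and 1.83 in vesicles, a difference of 0.33 (SD 1.22, n = 10 lines, 7 higher) that did not pass an exact two-sided sign-flip permutation test over lines (p = 0.402, 0.727 adjusted over 4 ratios). The ratio of JUNB to JUN differed by -0.17 (p = 0.545, exact permutation, 0.727 adjusted) and that of EGR1 to FOS by -0.003 (p = 0.992, exact permutation, 0.992 adjusted). The ratio of IER2 to IER3 differed most, by -2.10 (SD 3.17, 6 of 10 lines lower), and did not pass either (p = 0.0820, exact permutation, 0.328 adjusted). The smallest p such a test can give here is 0.00195.

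**Figure D2:**
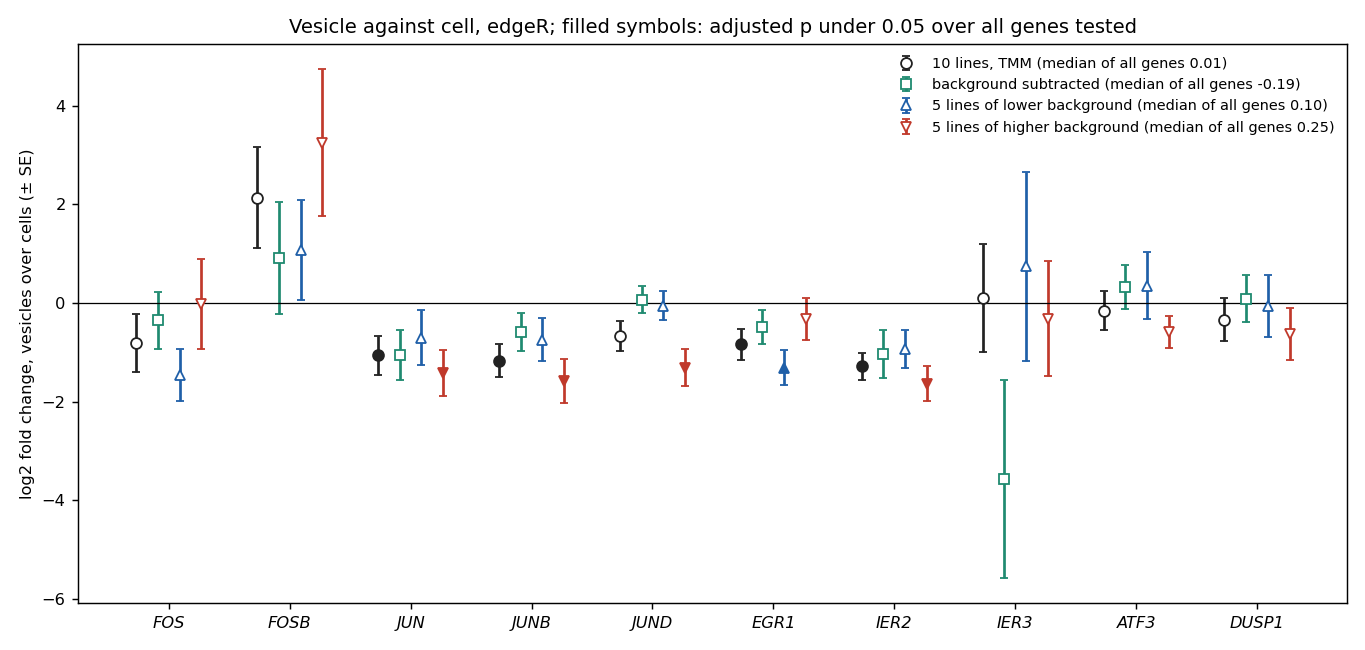
Log2 fold change of vesicles over cells (± SE, edgeR) for each gene in all 10 lines, after background subtraction, and within the 5 lines of lower and the 5 lines of higher background, with filled symbols for adjusted p under 0.05. IER2, JUNB, JUN and EGR1 are filled for all 10 lines, and no symbol is filled after background subtraction.

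The spread of these genes between the lines differed by gene and compartment. The SD of log2 CPM over the 10 lines was smaller in vesicles than in cells for 7 of the 10 genes, whereas this held for 34% of the 10023 genes with at least 10 CPM in cells, whose median SD was 0.63 in cells and 0.88 in vesicles. The 7 include IER3, whose cell mean lies under that limit, and FOSB, whose cell mean passes it through WiDr, and the vesicle counts of both were mostly under 2 times their expected background. Of the 8 members that reached the expression filter in every cell library, the SD was smaller in vesicles for 5. FOS went from an SD of 2.09 in cells, higher than in 90% of those genes, to 0.62 in vesicles, higher than in 18.2%. EGR1 went from 1.29 (percentile 83.7) to 0.44 (percentile 3.95). JUN went from 1.59 (percentile 86.7) to 0.66 (percentile 23.2). Over all 10 lines, these genes were thus above the median spread in cells and below it in vesicles, which did not hold for FOS and JUN in the lines of lower background given next. The SD of DUSP1 was 1.73 in cells and 0.79 in vesicles, that of ATF3 1.76 and 1.03, that of FOSB 3.07 and 1.56, and that of IER3 2.20 and 1.21. JUNB (0.66 and 0.80), JUND (0.57 and 0.68) and IER2 (0.43 and 0.78) spread more in vesicles than in cells, and these were the members with an SD of at most 0.66 in cells. The comparison genes, here and in the subsets below, were not matched to the members on their spread in cells. Over the 10 lines, 8 of the 10 members were above the median SD in cells. The share of 34% therefore cannot tell the members from other genes of wide spread in cells.

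The same values were read in subsets of the lines. Without WiDr the count was 7 of 10, and 5 of the 8, beside 33.6% of genes, with SDs of 1.58 in cells and 0.62 in vesicles for FOS. Within the 5 lines of lower background it was 7 of 10, and 5 of the 8, beside a share of 45.8%, with SDs of 1.53 and 0.76 for FOS, 0.95 and 0.42 for EGR1, and 1.81 and 0.85 for JUN. There the vesicle SDs of FOS (percentile 53.7) and JUN (percentile 62.6) were above the median of the genes, and that of EGR1 (percentile 14.6) was below it. The part of the background in the vesicle spread was not tested. These counts are a description with no test, since the genes and lines share libraries.

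The order of the lines in cells was kept in part for some genes. Over the 10 lines, whose paired libraries share a line but no kit, the Pearson correlation of log2 CPM between cells and vesicles was 0.64 for EGR1, 0.62 for ATF3 (Spearman 0.76), 0.56 for JUN, 0.45 for DUSP1, 0.32 for FOS and 0.23 for FOSB. It was -0.02 for IER2, -0.30 for JUNB, -0.30 for JUND and -0.62 for IER3 (Spearman -0.28). The line highest in cells was also highest in vesicles for EGR1, ATF3 and DUSP1, in each case WiDr. Among the members themselves, FOS and JUN correlated at 0.78 over the cells and 0.68 over the vesicles, and ATF3 and DUSP1 at 0.74 and 0.79. FOS and EGR1 correlated at 0.78 over cells and 0.22 over vesicles, FOSB and DUSP1 at 0.87 and 0.23, and IER2 and IER3 at -0.30 and 0.85. COLO-201 held the highest vesicle level of both IER2 and IER3, and IER3 reached 2 times its expected background in 3 vesicle libraries. The part of COLO-201 and of the background in the value of 0.85 was not tested.

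**Figure D3:**
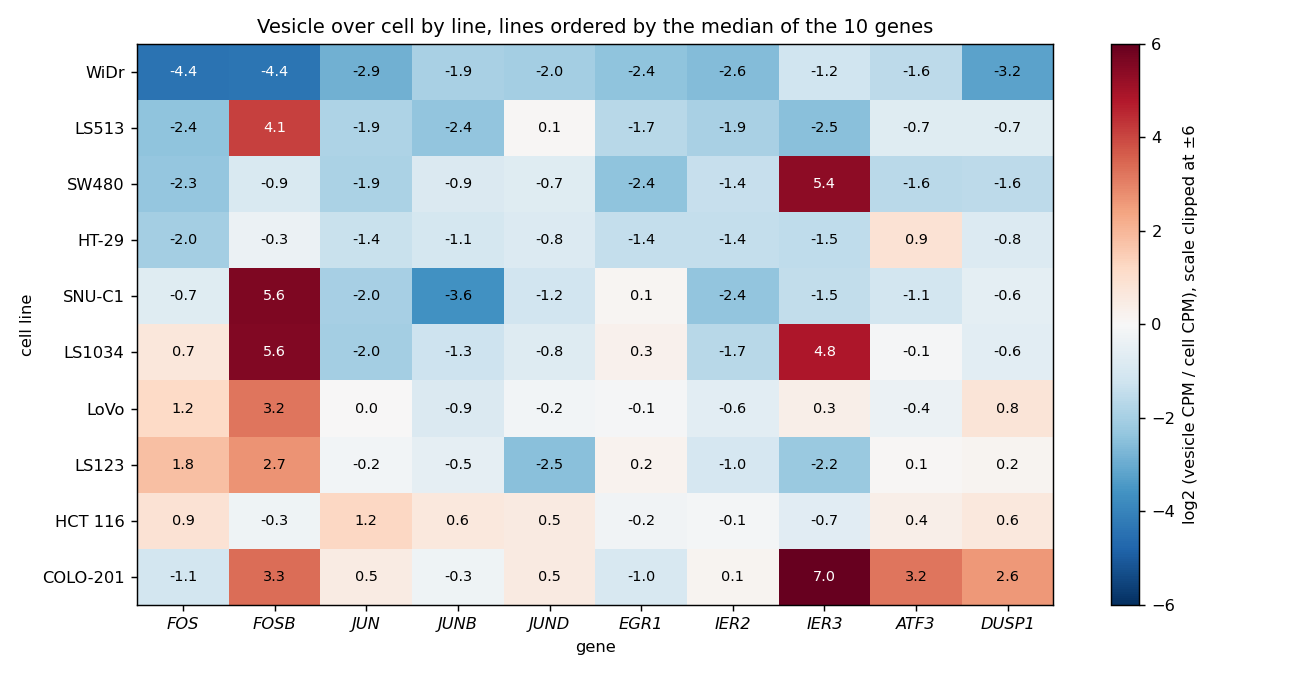
Log2 ratio of vesicle to cell CPM for each line (rows) and gene (columns), with lines ordered by the median of the 10 genes and red for higher in vesicles. The row of WiDr is negative for all 10 genes, and the row of COLO-201 is positive for 7 of 10.

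Line by line, the direction of the members differed. WiDr vesicles held less of all 10 mRNAs than WiDr cells, with a median log2 ratio of -2.52, and FOS was 21.7-fold lower (95% counting interval 18.6 to 25.5, from 17476 cell and 160 vesicle counts). The median was -1.76 in LS513, -1.49 in SW480, -1.21 in HT-29 and -1.14 in SNU-C1. LS513, SW480, HT-29 and SNU-C1 each had 1 or 2 members higher in vesicles, among them FOSB in SNU-C1 (5.62) and IER3 in SW480 (5.39). The FOSB value rests on 82 vesicle counts against 65.7 expected from background, and the IER3 value on 81 against 18.3. In the other 5 lines 4 to 7 members were higher. Some of these stood near or below their expected background, such as IER3 in LoVo with 10 vesicle counts against 14.2 expected. Log2 ratios ran from -2.02 for JUN to 5.56 for FOSB in LS1034 and from -2.52 for JUND to 2.71 for FOSB in LS123. FOSB had 109 vesicle counts against 80.0 expected from background in LS1034 and 70 against 60.5 in LS123. In COLO-201 the log2 ratios ran from -1.11 for FOS to 6.99 for IER3. The median of the members was -0.35 in LS1034, -0.04 in LoVo, -0.04 in LS123, 0.45 in HCT 116 and 0.52 in COLO-201. Beside them, the genes of at least 10 CPM in cells had medians of -0.71 in LS1034, -0.65 in LoVo, -0.73 in LS123, -0.39 in HCT 116 and -0.43 in COLO-201, all below the members. Those genes had medians of -0.76 in WiDr, -0.64 in LS513, -0.29 in SW480, -0.30 in HT-29 and -0.9999 in SNU-C1, all above the members. Each value rests on 1 library per compartment.

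WiDr and HT-29, the closest pair among the cells, differed in several of these genes. WiDr cells exceeded HT-29 cells 18.9-fold for FOSB, 8.28-fold for ATF3, 5.76-fold for DUSP1, 3.77-fold for FOS and 2.89-fold for EGR1. In vesicles the same ratios were 1.14 for FOSB, 1.54 for ATF3, 1.11 for DUSP1, 0.717 for FOS and 1.44 for EGR1. WiDr cells held the highest level of all lines for 9 of the 10 genes, and WiDr vesicles for 3 of them, with an estimated 30.1% of the counts of those vesicles from background. The part of the background in this difference was not tested.

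COLO-201 showed the reverse for IER3, ATF3 and DUSP1, whose log2 ratios of vesicles over cells were 6.99, 3.20 and 2.59. IER3 had 4 counts in COLO-201 cells (95% interval 1.09 to 10.2) and 252 in its vesicles (222 to 285), where 9.29 were expected from background, and the ratio of CPM was 127 (49.0 to 470). ATF3 had 32 cell counts and 146 vesicle counts against 13.2 expected, a ratio of 9.21 (6.24 to 14.0). SW480 resembled COLO-201 for IER3, with 3 cell counts, 81 vesicle counts against 18.3 expected and a ratio of 41.9 (13.8 to 207). LS1034 also had 4 IER3 counts in cells, but its 22 vesicle counts did not exceed the 29.3 expected. These exact intervals cover counting error only, and COLO-201 and SW480 are among the lines of lower background.

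The expected background, set per kilobase of exon and GC class in each library, took unequal parts of the 10 genes' vesicle counts. JUND stood at a median of 29.7 times its expected background over the vesicle libraries (range 4.57 to 116), JUNB at 9.73 (1.36 to 71.0), ATF3 at 7.75 (1.32 to 72.9) and DUSP1 at 7.30 (1.298 to 36.2). FOS followed at 4.91 (2.32 to 32.7), IER2 at 4.75 (0.720 to 56.8), EGR1 at 4.02 (1.40 to 24.7) and JUN at 3.94 (1.05 to 31.5). FOS and JUND were at 2 or more in all 10 vesicle libraries. FOSB, at 1.25 (0.337 to 6.16), reached 2 in HT-29 alone, and IER3, at 0.743 (0.192 to 27.1), reached it in COLO-201, SW480 and HCT 116. The vesicle levels of FOSB in 9 lines, with its 4 to 109 counts, and of IER3 in 7 lines were thus below 2 times what genes silent in cells would give.

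**Figure D4:**
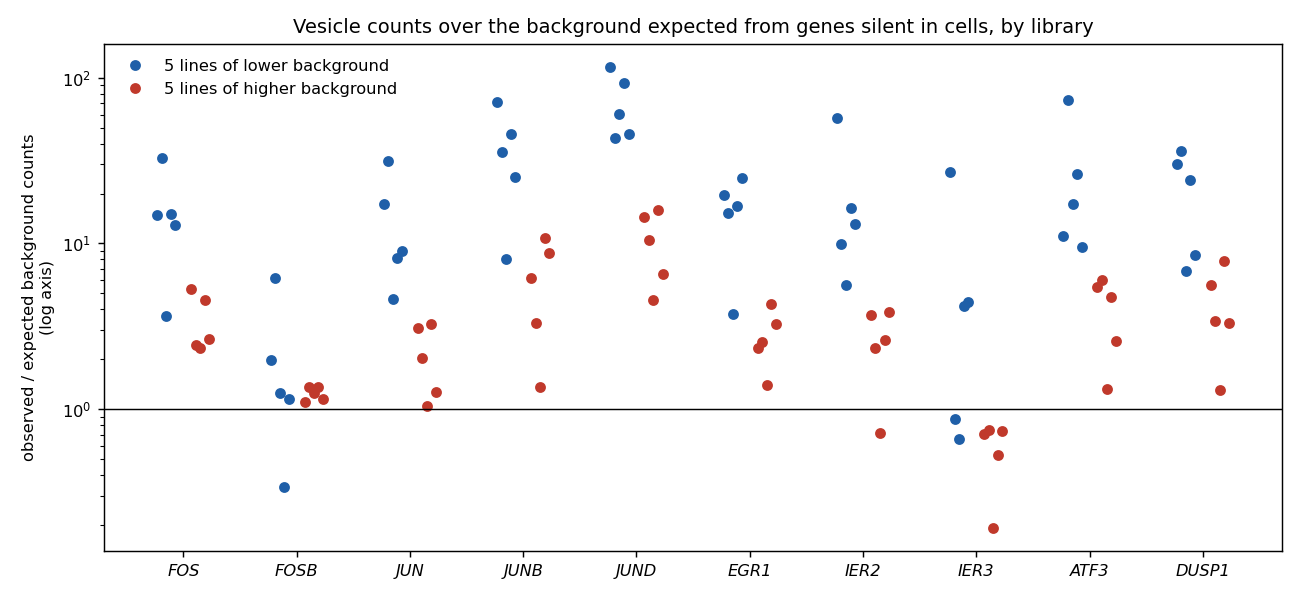
Observed vesicle counts of each gene divided by the counts expected from genes silent in cells, on a log axis, with 1 point per library and the line at 1 for no excess. JUND lies at 4.57 or higher in every library, whereas FOSB lies near 1 in most and IER3 below 1 in 7.

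After the expected background was subtracted, 0 of the 10 genes passed edgeR's test in either direction and 0 had an unadjusted p under 0.05, beside 14.4% higher and 20.1% lower among 12750 genes tested. JUN kept its size (-1.06 before and after) with a larger error (edgeR adjusted p = 0.121), and IER2 went to -1.03 (edgeR adjusted p = 0.112). JUNB went to -0.59, EGR1 to -0.49, FOS to -0.35 and FOSB to 0.92. The 4 genes called over all lines thus kept a negative sign and lost the call. JUND went from -0.67 to 0.07, ATF3 from -0.16 to 0.32 and DUSP1 from -0.34 to 0.08, and IER3 went to -3.57 (edgeR adjusted p = 0.180). Within the 5 lines of lower background, with no subtraction, EGR1 was lower (-1.31, edgeR adjusted p = 0.0210). Over all 14793 genes tested there, 2816 were lower and 2881 higher. Within the 5 lines of higher background, JUN (-1.42), JUNB (-1.58), JUND (-1.31) and IER2 (-1.64) were lower, with edgeR adjusted p from 0.00429 to 0.0291. Beside them, 4231 of all 16617 genes tested in those lines were lower and 5657 higher. The difference between the 2 classes of lines was tested as an interaction in edgeR, and 0 members passed, with the smallest adjusted p at 0.129 for JUND (-1.21, unadjusted p = 0.0271). The same interaction called 1135 of 15130 genes.

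AU-rich heptamers were then counted in the 3′ UTR of every gene of at least 10 CPM in cells, to set the members' motifs beside the whole transcriptome. The median log2 fold change was -0.43 for 6543 genes with 0 heptamers, -0.69 for 1989 genes with 1, -0.81 for 795 with 2 and -0.79 for 625 with 3 or more. The share of genes lower in vesicles was 38% in the first class and 53.6% in the last. The 3′ UTR is longer where motifs are more frequent, and within UTRs of 658 to 1933 bases the medians were -0.57, -0.63, -0.61 and -0.53 in the same order. Inside that length class the median thus hardly moved with the number of motifs. Within UTRs of 1934 bases or more they were -0.71, -0.83, -0.88 and -0.84. For UTRs of at most 657 bases they were -0.21, -0.43 and -0.37 up to 2 heptamers, with 5 genes left in the last class. After background subtraction the medians over all lengths were -0.21, -0.51, -0.77 and -0.87. They were -0.37, -0.40, -0.45 and -0.35 for 658 to 1933 bases, and -0.72, -0.76, -0.91 and -0.96 for 1934 bases or more. For at most 657 bases they were 0.14, -0.14 and 0.22 up to 2 heptamers. Among the members, IER2 with 0 heptamers had the lowest log2 fold change (-1.29), and DUSP1 with 3 had -0.34.

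**Figure D5:**
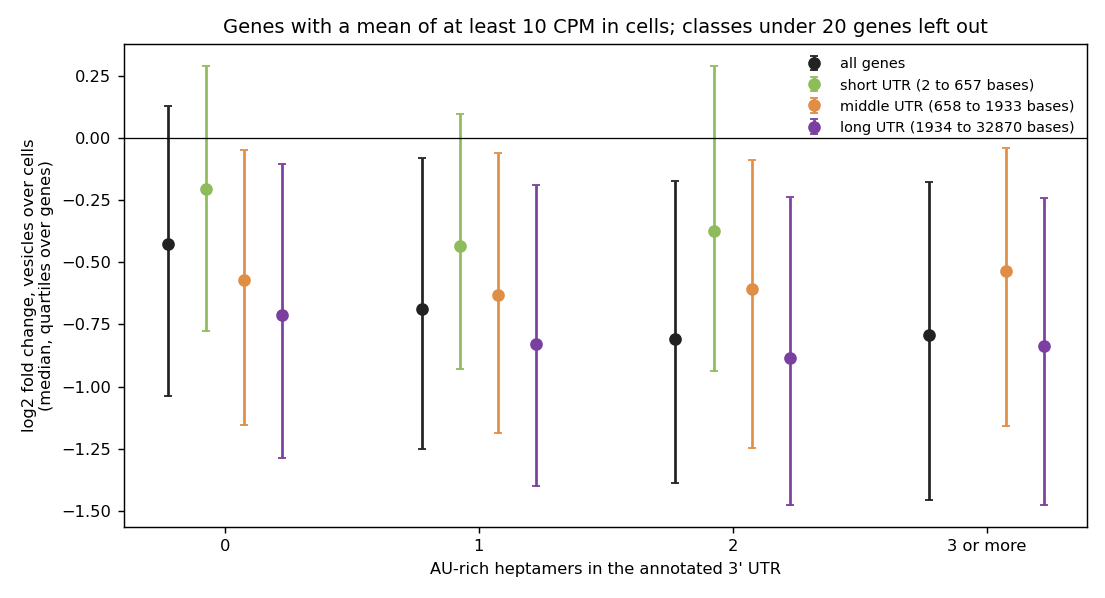
Median log2 fold change of vesicles over cells (bars, quartiles over genes) by the number of TATTTAT heptamers in the annotated 3′ UTR, for genes with at least 10 CPM in cells and for 3 classes of UTR length. At 0 heptamers the medians go from -0.21 in the shortest to -0.71 in the longest length class. Along the number of heptamers they lie between -0.53 and -0.63 in the middle class. They lie between -0.21 and -0.43 in the shortest class up to 2 heptamers, and between -0.71 and -0.88 in the longest.

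The other genes of the pathway, from lists set by function, were read in the same fit. The counts of each list stand beside the shares over all genes tested, 28.6% higher and 28.1% lower. After background subtraction those shares were 14.4% and 20.1%. Upper-quartile scaling called 6957 of 15130 genes higher and 1759 lower. Of 12 partners of AP-1, 3 were higher and 2 lower (median -0.13). BATF (4.47, SE 1.07, edgeR adjusted p = 0.00251) and BATF3 (3.48, edgeR adjusted p = 0.00257), lymphoid members of the family, were the highest, and FOSL2 (-1.85, edgeR adjusted p = 8.78e-05), a FOS relative, and ATF2 (-1.60, edgeR adjusted p = 0.000617) the lowest. BATF counts in vesicles were 13.4 times their expected background and those of BATF3 2.38 times. FOSL1, another FOS relative, had a fold change of 0.01. With upper-quartile scaling 6 of the partners were higher and 2 lower.

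Of 17 other immediate early factors, 4 were higher and 5 lower (median -0.56). The nuclear receptor NR4A3 (5.73, edgeR adjusted p = 3.15e-05) and the EGR1 relative EGR3 (3.63, edgeR adjusted p = 0.00630) led the rises, at 1.62 and 1.12 times their expected vesicle background. KLF10 (-2.50, edgeR adjusted p = 2.51e-05) and MYC (-2.11, edgeR adjusted p = 0.000399), the growth regulator downstream of Wnt signalling, led the falls. Without LoVo, 3 were lower. After background subtraction 1 was higher and 3 lower of 15 tested.

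Of 25 immediate early effectors, 1 was higher and 7 lower (median -0.47), with GADD45G at 2.79, TRIB1 at -2.69 and the survival factor MCL1 at -2.24. Without COLO-201, 11 were lower. After subtraction the counts were again 1 and 7. Among 10 other dual-specificity phosphatases, relatives of DUSP1, 2 were higher (DUSP9 at 3.67, DUSP7 at 0.91) and 3 lower, with DUSP6 at -1.87 and DUSP16 at -1.27. DUSP9 stood at 1.20 times its vesicle background, and after subtraction 0 were higher, also at an unadjusted p under 0.05, and 2 lower. The 2 rises became 0 without LS1034 or without SNU-C1, and the 3 falls became 1 without LoVo. With upper-quartile scaling, 6 effectors were higher and 5 lower, and 4 phosphatases were higher and 1 lower.

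The mRNAs of the machinery around the members each averaged at least 10 CPM in cells, a class in which 42.3% of genes were lower in vesicles. Of 15 upstream factors of the serum response, 11 were lower and 0 higher (median -0.95), led by the kinase RPS6KA3 (-1.80). Of 23 genes of mRNA decay, 21 were lower and 0 higher (median -1.16), led by the deadenylase scaffold CNOT1 (-2.71) and by ZFP36L2 (-2.40), which binds AU-rich elements. The DESeq2 Wald test called 8 and 17 of them lower and 0 higher, beside 3151 lower and 6264 higher among all 15130 genes. With edgeR at an unadjusted p under 0.05, 0 were higher as well. With upper-quartile scaling 2 upstream factors were higher and 3 lower, and 8 decay genes were lower. Without LoVo, 7 and 11 were lower. After subtraction 7 of 15 and 13 of 23 were lower, beside 20.1% of all genes tested. That share includes genes under 10 CPM in cells, and the share for the class of at least 10 CPM was not computed after subtraction. Of 15 housekeeping genes with long-lived mRNAs, 1 was higher (FTL, 1.33) and 6 lower, among them B2M (-1.45) and PGK1 (-1.27), with a median of -0.47. These counts turned with the scaling, to 5 higher and 4 lower by library size and 5 higher and 1 lower by the upper quartile. The lower-background lines alone gave 6 higher and 1 lower. Without LoVo, 3 were higher and 1 lower. After subtraction 5 were higher and 0 lower (median 0.32), with 1 lower at an unadjusted p under 0.05.

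Among 10022 genes with at least 10 CPM in cells, the profile over the 10 cell libraries most like that of FOS was AGRN (Pearson r of log2 CPM 0.93), followed by ELOA (0.93), RTL10 (0.90), LRATD2 (0.90) and DAP (0.89). Over the vesicle libraries the same genes correlated with FOS at 0.66, 0.01, 0.74, 0.27 and -0.07. For JUN the closest were YIF1A (0.96), USF3 (0.95), NADSYN1 (0.95), SLC35E2B (0.95) and TRAPPC6A (0.95), with values of 0.61, 0.21, 0.36, 0.21 and 0.44 over the vesicles. These 10 genes were picked as the closest of many, and the points share the library depth and the lines.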

How the data were processed

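The authors deposited 1 table of unnormalised read counts, with 17113 protein-coding symbols as rows and the 20 libraries as columns, each of which matched 1 title (0 unmapped). Per the submitters' processing notes, hg19, STAR and featureCounts were used; versions, annotation and strand setting are not given in the sources used here. Libraries of the same cell line were paired by a block, per the labels, and the correlation of a line's deviations between its compartments was 0.0846 to 0.546.

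The compartments were compared in R 4.3.3 with edgeR 4.0.16 (robust quasi-likelihood test), TMM scaling, filterByExpr by compartment and Benjamini-Hochberg adjustment over 15130 genes, called at an adjusted p under 0.05. Each SE comes from the fold change and its F statistic. Levels are TMM-scaled CPM. SDs across lines, and correlations between genes or between libraries, used log2 CPM with a prior count of 2. Correlations of a gene's level between cells and vesicles used log2 CPM with no prior count. Ratios within a library used counts plus 0.5. Background was the reads per kilobase of exon of 2077 genes that no cell library counted more than 10 times, in 5 GC classes, with lengths from GENCODE 29 (99.95% of symbols matched). Alternatives were DESeq2 1.42.0, other scalings, no filter, no block, background subtraction, subsets of lines and leaving out each line. The fit was tested on simulated data. The rule named all 10 members and, per pathway list, the 2 largest called changes in each direction, of which 1 is not reported here. The members and lists were chosen with earlier results of these data known. The closest cell libraries, HT-29 and WiDr, differed beyond sampling noise (chi-square per degree of freedom 108), so none was counted as a duplicate.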

Additional observations from a re-analysis of the deposited data

Results flagged for a closer look

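Of 30 groups of 10 values (each gene's log2 CPM in cells, in vesicles and its difference), 3 had an end value whose gap to the next was above Dixon's 95% critical value, and chance flags about 1 in 20 such groups. All 3 came from COLO-201. IER3 in COLO-201 vesicles stood at 17.998 CPM, with the next line at 4.39 CPM and a gap of 0.495 of the range. ATF3 in COLO-201 cells stood at 1.13 CPM, with the next line at 12.7 CPM and a gap of 0.511 of the range. The log2 ratio of ATF3 in vesicles over cells was 3.20 in COLO-201, with the next line at 0.87 and a gap of 0.484 of the range. Each value rests on 1 library.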

How the results depend on the processing

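Depth and design limit these values: 1 library per line and compartment, vesicle depth down to 1.75 M counts, and a kit that coincides with the compartment. Over 23 alternative fits, 230 values of the 10 genes gave 141 with the same direction and call. Another 46 lost a call, 8 gained one and 35 changed sign, and the cause was not tested. Only IER2, JUNB, JUN and EGR1, the genes called over all 10 lines, had a call to lose. JUN lost it in 17 of the 23 fits, EGR1 in 15, JUNB in 8 and IER2 in 6. The 141 include values of genes that were not called over all 10 lines and stayed so.

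Over all genes the calls were 4322 higher and 4254 lower, and 0 and 4 among the members. With DESeq2 size factors 2802 genes and 2 members were lower, with ATF3 at 0.220 and DUSP1 at 0.0358. With library size alone 2465 genes and 1 member were lower, with ATF3 at 0.36 and DUSP1 at 0.15. Upper-quartile scaling gave 6957 higher and 1759 lower, with 1 member higher, 0 lower, JUND at 0.0702, ATF3 at 0.61 and DUSP1 at 0.42. Rises made up 50.4% of the calls under TMM, 65.5% under DESeq2's factors, 69.2% under library size and 79.8% under the upper quartile. The DESeq2 Wald test gave 6264 genes higher and 3151 lower, with 1 member higher, 2 lower, ATF3 at 0.220 and DUSP1 at 0.0373.

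Without the replicate block by cell line, 3470 genes were higher and 3438 lower, 5 members were lower (FOS joined at -2.26) and FOSB turned to -1.75. The fit with no filter called 6076 higher and 4407 lower.

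Subtracting the background left 1834 genes called higher, 2559 called lower and 0 members lower, with JUND at 0.0658, IER3 at -3.57, ATF3 at 0.32 and DUSP1 at 0.0826. The ratio of JUNB to JUN turned to 0.42 and that of IER2 to IER3 to 0.0781. The remaining subtracted fits were added after the data were seen. Subtraction with DESeq2 size factors gave 2019 and 2463 genes and 0 members lower, with JUND at 0.13, IER3 at -3.49, ATF3 at 0.40 and DUSP1 at 0.15. Subtraction with upper-quartile scaling gave 2521 and 1894 genes and 0 members lower, with JUND at 0.32, IER3 at -3.30, ATF3 at 0.60 and DUSP1 at 0.35. Subtraction in the 5 lines of lower background gave 1719 and 2273 genes and 1 member lower, with FOSB at -0.15, JUND at 0.27, IER3 at -0.42, ATF3 at 0.64 and DUSP1 at 0.19.

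In the 5 lines of lower background 2881 genes were higher and 2816 lower, 1 member was lower, ATF3 was at 0.35 and the ratio of EGR1 to FOS at 0.0760. In the 5 lines of higher background IER3 was at -0.32. Without WiDr and LS123, 1 member was higher and 2 lower, with ATF3 at 0.00209. A pseudocount of 2 put the ratio of EGR1 to FOS at 0.000106.

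Leaving out each line gave 3895 to 4749 genes higher and 2383 to 4277 lower, the lowest without LoVo, and 0 to 1 members higher and 1 to 5 lower. ATF3 ran from -0.45 to 0.18, with a sign change without LoVo (0.18) or WiDr (0.00925). IER3 ran from -0.40 to 0.50, turning negative without COLO-201 (-0.40), LS1034 (-0.37) or SW480 (-0.40). The ratio of EGR1 to FOS ran from -0.23 to 0.17, turning positive without LoVo (0.138), LS1034 (0.0440), HCT 116 (0.117), LS123 (0.168) or SW480 (0.00309). IER2 kept its call in all 10 of these fits, JUNB in all but the one without LoVo.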
